A study of Mus musculus with 27 samples.

Results

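The genes taken to mark the cholinergic interneurons of the striatum are 4 of the 18193 gene symbols measured: Lhx8, Chat, Slc18a3 and Slc5a7. They were chosen by name, because Lhx8 had stood out in an earlier look at the same arrays as higher in D2 than in D1 arrays and higher in D2 arrays of G9a mutants. The differences between D2 and D1 arrays and between genotypes in D2 arrays are therefore given for these genes as descriptions without a test. Each is measured by a single probe set, a group of short probes for 1 transcript: 1427300_at for Lhx8 (chromosome 3), 1440070_at for Chat and 1422203_at for Slc18a3 (both chromosome 14) and 1421428_at for Slc5a7 (chromosome 17).

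Cholinergic interneurons are sparse, large, tonically active cells that supply most of the acetylcholine of the striatum, where it acts on the medium spiny neurons (MSN), the projection neurons. Lhx8, a LIM homeodomain transcription factor, directs their development together with its relative Isl1. Chat makes acetylcholine from choline, Slc18a3 (the vesicular acetylcholine transporter) loads it into vesicles, and Slc5a7 (the high-affinity choline transporter) takes choline back up after release. These cells express the dopamine receptor gene Drd2, as D2 MSN do.

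Male mice of mixed background (G9a line C57BL/6, BAC line 129/Sv), 2 to 5 months old, gave striatal RNA for 27 arrays. It was the RNA held by ribosomes whose L10a protein carries GFP, so that it can be pulled down (translating ribosome affinity purification, TRAP). Every animal carried this tag and 2 floxed alleles of Ehmt2, the gene of G9a, which methylates histone H3 at lysine 9. The 6 D1 controls (2 saline, 4 cocaine) were Drd1-TRAP; G9a fl/fl, and the 7 D1 mutants (3 saline, 4 cocaine) were Drd1-TRAP; Drd1-Cre; G9a fl/fl. The 7 D2 controls (3 saline, 4 cocaine) were Drd2-TRAP; G9a fl/fl, and the 7 D2 mutants (3 saline, 4 cocaine) are labelled Drd-TRAP; Drd2-Cre; G9a fl/fl, while the protocol names their tag Drd2-TRAP. Saline or cocaine (20 mg/kg/day) was injected 8 times, with tissue collected 2 h afterwards. Controls lack Cre, so the loss of G9a and the presence of the Cre transgene cannot be told apart. Tag and Cre follow the receptor gene, not a cell type, so a D2 array pools every tagged Drd2 cell, and more tagged cholinergic cells cannot be told apart from more RNA in each of them.

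The deposited values are on a log2 scale. Array medians lay between 5.70 and 5.82, and each array correlated with the others of its group at 0.987 or more. The target Ehmt2 was lower in mutants, at 8.68 to 9.38 against 10.67 to 11.01 in D2 controls and at 8.03 to 9.37 against 9.95 to 10.74 in D1 controls. D2 mutant cocaine replicate 4, whose source name calls it a control while its title does not, lay within the mutant range. Ttr, a choroid plexus transcript, exceeded 9.5 in 3 arrays, 1 of them a D2 array (D2 control cocaine replicate 3). A value of 6 was set as a floor, below which a probe set is read here as background. Lhx8 passed it in all 14 D2 arrays and in none of the D1 arrays, Slc18a3 passed it in 8 D2 arrays, and Chat and Slc5a7 passed it in no array. The label of cholinergic cells thus rests on Lhx8 and, more weakly, on Slc18a3, while Chat, the defining enzyme, gave no signal above the floor on this array.

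The 250 bases upstream of each annotated start, on the minus strand in RefSeq's GRCm38.p6, are shown as a description. Lhx8, Slc18a3 and Slc5a7 had higher means in D2 than in D1 arrays, though Slc5a7 overlapped between the controls. Chat and Slc5a7 were under the floor on every array, so whether Chat differs cannot be seen here. Slc18a3 lies inside the span of the Chat gene, an arrangement known as the cholinergic gene locus. Capitals mark GGGCGG (the Sp1 box) and CGTCA (the core of the cAMP response element) on either strand, so that CCGCCC and TGACG count too. They are at chr3:154330561-154330810 (Lhx8), chr14:32464851-32465100 (Slc18a3), chr14:32465910-32466159 (Chat) and chr17:54299035-54299284 (Slc5a7).
Lhx8: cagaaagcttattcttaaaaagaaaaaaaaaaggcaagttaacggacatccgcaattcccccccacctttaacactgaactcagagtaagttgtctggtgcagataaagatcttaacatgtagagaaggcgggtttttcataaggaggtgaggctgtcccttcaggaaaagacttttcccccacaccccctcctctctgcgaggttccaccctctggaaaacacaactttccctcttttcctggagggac
Slc18a3: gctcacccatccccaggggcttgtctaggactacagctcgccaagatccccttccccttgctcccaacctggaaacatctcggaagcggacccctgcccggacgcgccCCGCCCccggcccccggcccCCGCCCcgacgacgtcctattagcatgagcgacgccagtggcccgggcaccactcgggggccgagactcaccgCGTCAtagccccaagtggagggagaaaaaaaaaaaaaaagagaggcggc
Chat: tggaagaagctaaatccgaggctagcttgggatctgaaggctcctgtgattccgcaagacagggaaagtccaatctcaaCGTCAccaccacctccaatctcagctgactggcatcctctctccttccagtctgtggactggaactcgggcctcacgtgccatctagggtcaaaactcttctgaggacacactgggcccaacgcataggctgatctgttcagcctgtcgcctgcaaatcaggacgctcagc
Slc5a7: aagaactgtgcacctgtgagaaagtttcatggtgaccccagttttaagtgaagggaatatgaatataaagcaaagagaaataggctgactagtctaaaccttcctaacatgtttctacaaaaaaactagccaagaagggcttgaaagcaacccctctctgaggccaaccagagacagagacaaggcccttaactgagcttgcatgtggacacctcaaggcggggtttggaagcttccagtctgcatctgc

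The Slc18a3 window had 66% G and C with 21 CpG pairs, and the Chat window 54.8% with 8. Lhx8 had 46% with 4, and Slc5a7 45.6% with 1, against medians of 52.4% and 6 over all promoters. The Sp1 box occurred 2 times in the Slc18a3 window and in none of the others, and 32.7% of 32851 windows of this length hold it. The cAMP response core occurred 1 time each in the Slc18a3 and Chat windows, and in 17.8% of all windows. TAATTA, a core that LIM homeodomain factors can bind, was in none of the 4 windows and in 4.84% of all windows. These motifs were chosen after the sequences were seen, and a match is a description of letters only.

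Lhx8 was the member with the clearest signal. In D2 control arrays it read 8.72, 7.47 and 8.41 with saline and 8.22, 7.75, 7.38 and 7.38 with cocaine. In D2 mutant arrays it read 8.76, 9.34 and 9.30 with saline and 8.95, 9.08, 9.10 and 9.18 with cocaine. All 7 mutant arrays lay above all 7 controls, and the lowest mutant (8.76) was close to the highest control (8.72). The control arrays spread more widely (SD 0.546, n = 7) than the mutant arrays (SD 0.201, n = 7).

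In D1 arrays Lhx8 stayed below the floor throughout. It read 5.20 and 5.11 in control saline arrays and 5.57, 5.20, 5.18 and 4.99 in control cocaine arrays. D1 mutants read 5.08, 5.51 and 5.39 with saline and 5.30, 5.21, 5.18 and 5.02 with cocaine. The D1 genotypes overlapped, and no D1 array came near a D2 array.

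The D2 minus D1 difference of Lhx8 was 2.75 in controls (SE 0.164, 6.72-fold) and 3.85 in mutants (SE 0.153). Because D1 arrays were at background, these differences are limited by it. Within D2 arrays mutants exceeded controls by 1.17 (SE 0.153, 2.24-fold), the 98th largest rise among 12017 genes above the floor, whose median was 0.02. Lhx8 had been picked for this rise and passed the floor only through D2 arrays, so nothing is read from its rank. By group mean the order was D2 mutant saline (9.13, SD 0.323, n = 3), D2 mutant cocaine (9.08, SD 0.0962, n = 4), D2 control saline (8.20, SD 0.652, n = 3) and D2 control cocaine (7.68, SD 0.399, n = 4), then the D1 groups from 5.33 to 5.15. The drug groups of 1 genotype overlapped in each case, and so did the 4 D1 groups.

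**Figure D1:**
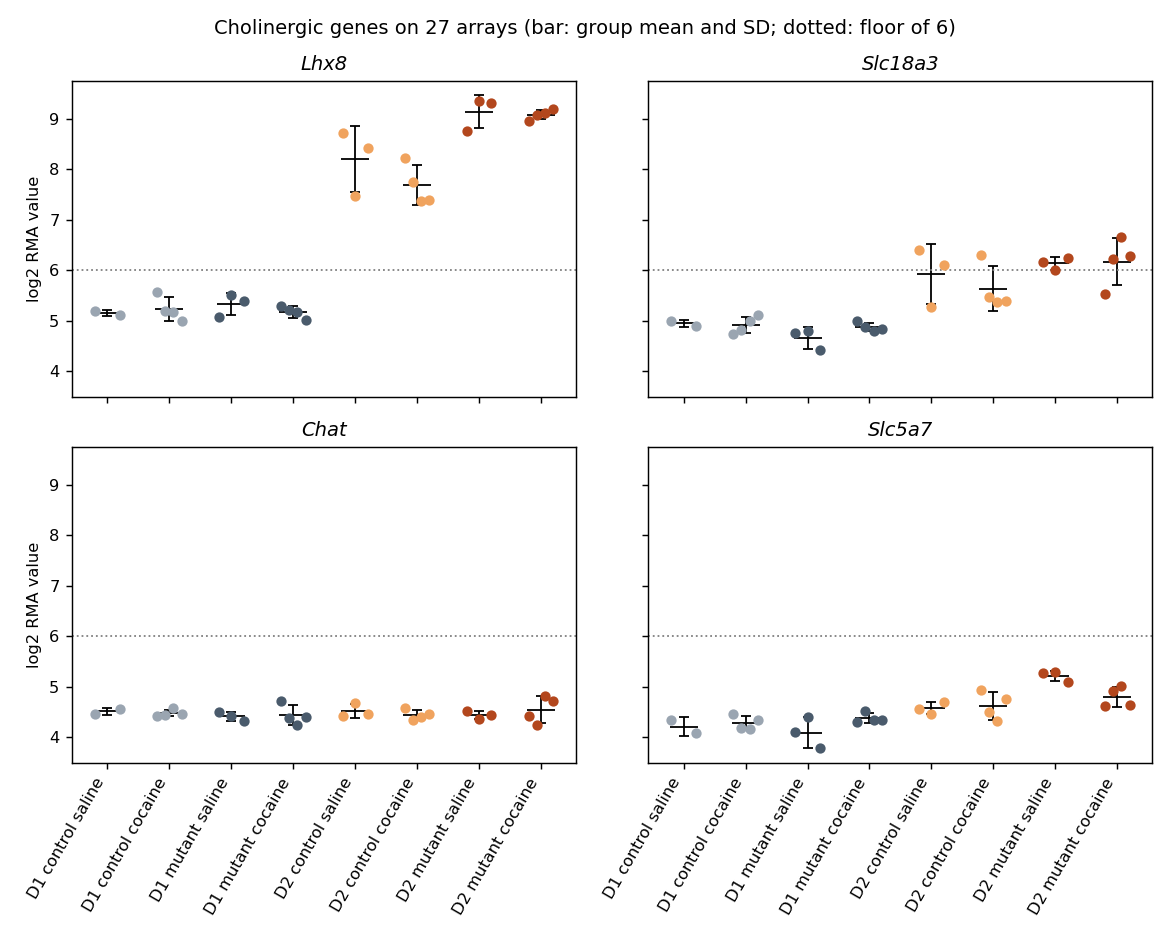
Log2 RMA values of the 4 genes on each array (points) by group, with the group mean and SD (bars) and the floor of 6 (dotted). Lhx8 separates D2 from D1 arrays and, among D2 arrays, mutants (8.76 to 9.34) from controls (7.38 to 8.72), while Chat lies between 4.24 and 4.81 in every group.

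Chat, the synthesis enzyme, did not separate any groups. D2 controls read 4.43, 4.68 and 4.46 with saline and 4.58, 4.35, 4.41 and 4.45 with cocaine. D2 mutants read 4.52, 4.37 and 4.44 with saline and 4.42, 4.24, 4.81 and 4.72 with cocaine. The D1 arrays covered the same range, from 4.25 to 4.73. The D2 minus D1 difference was -0.01 in controls (SE 0.0871) and 0.07 in mutants (SE 0.0815), and the genotype difference in D2 arrays was 0.01 (SE 0.0815).

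Slc18a3, the vesicular transporter, was higher in D2 than in D1 arrays of the same genotype but lay near the floor. D2 controls read 6.40, 5.27 and 6.11 with saline and 6.30, 5.46, 5.38 and 5.39 with cocaine. D2 mutants read 6.17, 6.00 and 6.24 with saline and 5.53, 6.21, 6.65 and 6.27 with cocaine. The genotypes overlapped, with 3 control arrays above 6 and D2 mutant cocaine replicate 1 (5.53) below those 3 and just above the other 4 controls (5.27 to 5.46).

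Slc18a3 in D1 arrays ran from 4.74 to 5.11 in controls and from 4.42 to 4.99 in mutants, below every D2 array of either genotype. The D2 minus D1 difference was 0.85 in controls (SE 0.175) and 1.38 in mutants (SE 0.163). Mutants exceeded controls by 0.37 in D2 arrays (SE 0.163), while the arrays overlapped, and by 0.21 without D2 control saline replicate 2. The order of group means was D2 mutant cocaine (6.17, SD 0.466, n = 4), D2 mutant saline (6.14, SD 0.123, n = 3), D2 control saline (5.93, SD 0.590, n = 3) and D2 control cocaine (5.63, SD 0.446, n = 4), and neighbours in it differed by less than their spread.

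Slc5a7, the choline transporter, was also higher in D2 arrays, but below the floor. D2 controls read 4.55, 4.47 and 4.70 with saline and 4.93, 4.49, 4.31 and 4.76 with cocaine. D2 mutants read 5.26, 5.29 and 5.10 with saline and 4.62, 4.91, 5.01 and 4.64 with cocaine. The 3 saline mutants were the highest of all 27 arrays, while the cocaine mutants overlapped the controls. Group means ran from D2 mutant saline (5.22, SD 0.103, n = 3) to D2 mutant cocaine (4.80, SD 0.195, n = 4), D2 control cocaine (4.63, SD 0.276, n = 4) and D2 control saline (4.57, SD 0.118, n = 3), and of these neighbours only the first pair did not overlap. D1 arrays ran from 3.78 to 4.53 and overlapped D2 controls but not D2 mutants. The differences were 0.35 (SE 0.105) for D2 minus D1 in controls, 0.77 (SE 0.0983) in mutants and 0.41 (SE 0.0983) for mutants minus controls in D2 arrays.

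In controls, 2 of the 4 genes (Lhx8 and Slc18a3) lay higher in every D2 array than in every D1 array, against 2.09% of all probe sets, with 7.13% called higher by limma. In mutants 3 did (Lhx8, Slc18a3 and Slc5a7), against 5.32%, with 12.1% called higher. Between genotypes in D2 arrays only Lhx8 of the 4 did not overlap, against 1.61%, with 3.41% called higher. The genes were chosen with these contrasts known, so nothing is read from these counts.

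Low values on a log2 scale contain background, which compresses differences. On the linear scale, after subtracting the mean D1 signal of the same probe set as a measure of background, Lhx8 averaged 217 in D2 controls (SD 99.99, n = 7) and 516 in D2 mutants (SD 74.9, n = 7), a ratio of 2.38. Slc18a3 averaged 27.9 (SD 19.8) and 43.8 (SD 16.3), with an SD of 3.25 among the D1 arrays. Slc5a7 averaged 5.23 (SD 3.60) and 12.7 (SD 5.85), with an SD of 2.46 among the D1 arrays, and nothing is read from a ratio of values so near the background. The Lhx8 arrays of the genotypes did not overlap on this scale, and those of the other genes did.

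**Figure D2:**
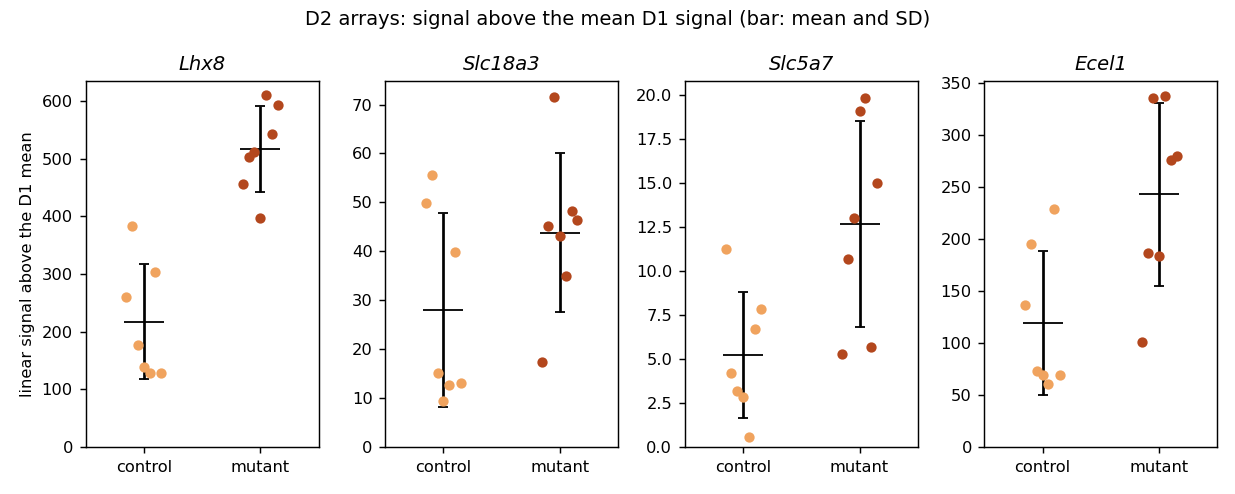
Linear signal above the mean D1 signal of the same probe set on the 14 D2 arrays (points), by genotype, with mean and SD (bars), for 3 members and Ecel1. Lhx8 runs from 128 to 383 in controls and from 396 to 610 in mutants; the other genes overlap between genotypes.

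The log2 difference between Lhx8 and Slc18a3 within an array was 1.92 to 2.31 in the 7 D2 controls and 2.45 to 3.42 in the 7 D2 mutants. Nothing is read from this, since Lhx8 was chosen for its difference and Slc18a3 is under the floor in 6 of the 14 arrays.

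The loss of G9a in D1 cells was a contrast the choice of genes had not used. None of the 4 genes passed in limma's moderated test with Benjamini-Hochberg adjustment over 45037 probe sets, of which 1.70% were called (1.27% higher). Lhx8 differed by 0.06 (SE 0.164, 95% interval -0.28 to 0.40, limma adjusted p = 0.965) and Slc18a3 by -0.17 (SE 0.175, -0.53 to 0.19, limma adjusted p = 0.880). Chat differed by -0.07 (limma adjusted p = 0.911) and Slc5a7 by -0.01 (limma adjusted p = 0.991). All 4 are at background in D1 arrays, which limits what could be seen.

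**Figure D3:**
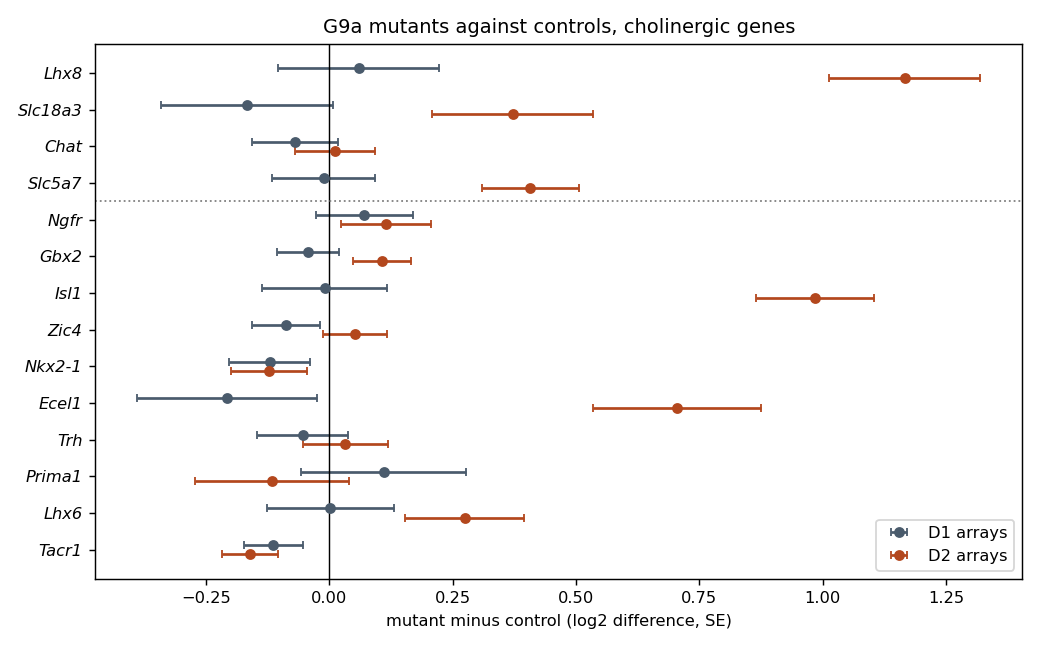
Mutant minus control log2 difference with its SE in D1 and D2 arrays, for the 4 members (above the dotted line) and the 10 other cholinergic genes. In D2 arrays Lhx8 (1.17), Isl1 (0.98) and Ecel1 (0.70) lie farthest to the right, while in D1 arrays they lie at 0.06, -0.01 and -0.21.

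Cocaine changed none of the 4 genes beyond the threshold. In D2 arrays, where limma called 0.0222% of probe sets (0.0178% higher), cocaine minus saline was -0.29 for Lhx8 (SE 0.153, 95% interval -0.60 to 0.03, limma adjusted p = 0.822) and -0.13 for Slc18a3 (SE 0.163, -0.47 to 0.21, limma adjusted p = 0.969). The Lhx8 value was -0.16 without D2 control saline replicate 1 and -0.47 without D2 control saline replicate 2, and that of Slc18a3 was -0.0096 and -0.29. Slc5a7 differed by -0.19 (SE 0.0983, limma adjusted p = 0.819) and Chat by 0.01 (limma adjusted p = 0.994). In D1 arrays, with 0.149% called (0.133% higher), the differences ran from -0.04 for Lhx8 to 0.18 for Slc5a7, with limma adjusted p-values from 0.709 to 0.992.

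The difference of the cocaine effect between D2 mutants and D2 controls was 0.46 for Lhx8 (SE 0.306), 0.32 for Slc18a3 (SE 0.327), 0.18 for Chat (SE 0.163) and -0.47 for Slc5a7 (SE 0.197). Leaving out D2 control saline replicate 1 or 2, in that order, Lhx8 gave 0.20 and 0.83 and Slc18a3 0.084 and 0.65. The Slc5a7 value follows the cocaine mutants, which read lower than the saline mutants, and had an unadjusted limma p of 0.0239. After adjustment none passed (1.00 rounded for each), and 0% of probe sets were called by limma, with 1972 (4.38%) at an unadjusted p under 0.05.

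Whether arrays of 1 group that were high in 1 member were high in another was asked over the 14 D2 arrays after subtracting each group's mean. Lhx8 and Slc18a3 had r = 0.766 and rho = 0.754 (exact permutation within groups, two-sided, p = 0.00834 and 0.00916). Adjusted over the 6 pairs these became 0.0501 and 0.0550 and did not pass. Without the 2 arrays farthest from the median of Lhx8, D2 control cocaine replicate 1 and D2 control saline replicate 2, r was 0.275, so over all D2 arrays the relation did not hold without them.

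Slc18a3 with Slc5a7 had r = 0.621 and rho = 0.565 (exact permutation p = 0.0434 and 0.0741, adjusted 0.130 and 0.222), and r = 0.569 without the 2 farthest arrays. The other 4 pairs had r from -0.16 to 0.38 and adjusted exact permutation p-values of 0.428 or more. Within a genotype, Slc18a3 with Slc5a7 had r = 0.624 in D2 controls and 0.615 in D2 mutants. Without the 2 farthest arrays of the genotype these were 0.461 and -0.665, and Slc5a7 is under the floor on every array. Within the 7 D2 controls Lhx8 and Slc18a3 had r = 0.966 and identical ranks after centring, at the smallest p that 144 permutations can give (exact permutation p = 0.00694, adjusted over 12 pairs 0.0833). Within the 7 D2 mutants r was 0.199 and rho 0.25 (exact permutation p = 0.465 and 0.500, adjusted 0.792 and 0.769). Without the 2 farthest arrays of each genotype, r was 0.784 in controls (without the same 2 arrays as above) and 0.774 in mutants (without D2 mutant saline replicates 1 and 2). The difference between the genotypes was not tested, and this split was added after the data were seen.

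**Figure D4:**
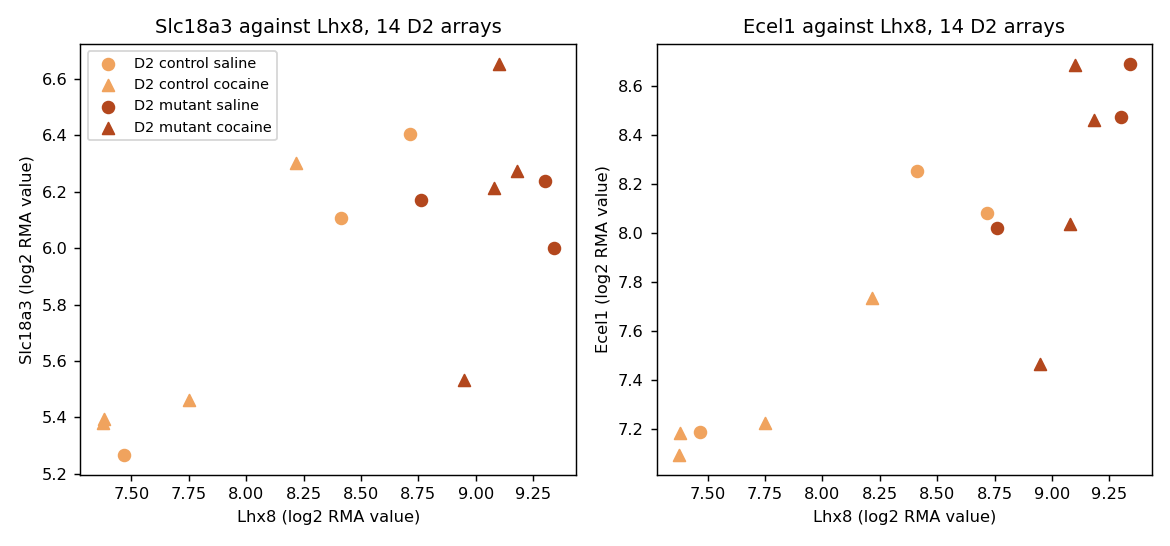
Log2 values of Slc18a3 (left) and Ecel1 (right) against Lhx8 on the 14 D2 arrays, by genotype (colour) and drug (shape), without subtraction of group means. The 3 controls with the highest Lhx8 are those with Slc18a3 above 6, while the mutants lie to the right, with Lhx8 from 8.76 to 9.34 and Slc18a3 from 5.53 to 6.65.

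Other genes of cholinergic interneurons were taken from a fixed list, of which 10 of 14 had a probe set. The list was drawn up with earlier results of these data known. Its calls and p-values are therefore descriptions and no independent support. In controls 3 of the 10 were higher in D2 than in D1 arrays by limma and 1 was lower, against 12.2% of all probe sets called in either direction. Higher were Ecel1, an endopeptidase-like protein (1.21, SE 0.182, limma adjusted p = 4.19e-05), Prima1, which anchors acetylcholinesterase to membranes (2.15-fold, limma adjusted p = 4.69e-05), and Ngfr, the p75 neurotrophin receptor (0.42, SE 0.0977). Isl1 was lower (-3.58, SE 0.128), and it is also a gene of D1 MSN, where it read 10.04 to 10.87. The list's median was 0.06, against 0.01 over all probe sets.

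In mutants 6 of the 10 were higher in D2 than in D1 arrays and 1 was lower, with 20.5% of all probe sets called. Ecel1 (2.12, SE 0.170), Prima1 (0.88, SE 0.157) and Ngfr (0.47, SE 0.0914) were higher and Isl1 was lower (-2.59, SE 0.119). The other 3 genes that were higher differed by 0.20 to 0.53, and 2 of them stayed under the floor on all arrays. With the mean of the oligodendrocyte markers as a covariate 2 of the 10 were higher. Over all 45037 probe sets 860 were then called higher, against 5448 in the main fit. The lower count is therefore no result about the list.

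Between genotypes in D2 arrays 2 of the 10 rose in mutants and none fell, with 4.91% of all probe sets called. Isl1 rose by 0.98 (SE 0.119, limma adjusted p = 2.74e-06), from 6.52 to 7.58 in controls to 7.82 to 8.29 in mutants, without overlap. Ecel1 rose by 0.70 (SE 0.170, limma adjusted p = 0.0127). The list's median was 0.08, against -0.02 over all probe sets, and Lhx6 (0.27, SE 0.121, limma adjusted p = 0.237) and the neurokinin receptor Tacr1 (-0.16, SE 0.0564, limma adjusted p = 0.111) did not pass. Tacr1 did not exceed the floor on any array, nor did Gbx2, Zic4 and Nkx2-1 of this list, which limits the count and the median. In D1 arrays no gene of the list passed between genotypes, with Ecel1 at -0.21 (SE 0.182, limma adjusted p = 0.840), and none passed for cocaine in either subtype.

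Ecel1 was singled out after its values were seen. In D2 controls it read 8.08, 7.19 and 8.25 with saline and 7.73, 7.23, 7.09 and 7.18 with cocaine. D2 mutants read 8.02, 8.69 and 8.47 with saline and 7.47, 8.04, 8.68 and 8.46 with cocaine. The genotypes overlapped, with D2 mutant cocaine replicate 1 the lowest mutant here as it was for Slc18a3. The rise lost its call without D2 control saline replicate 2 (0.54, limma adjusted p = 0.0590), without D2 mutant saline replicate 2 (0.63, limma adjusted p = 0.0520), and with D2 mutant cocaine replicate 4 counted as a control (0.54, limma adjusted p = 0.197).

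Some markers of other cells were also called between the D2 genotypes, where 4.91% of all probe sets were called (3.41% higher). Of 8 oligodendrocyte markers 5 rose in D2 mutants, including Ermn (1.75, and 1.57 in D1 mutants) and Ugt8a (0.80), and the mean log2 level of the list ran from 6.83 to 7.74 in controls and from 8.02 to 8.37 in mutants. Astrocyte markers ran from 6.65 to 7.24 and from 7.06 to 7.46, with 1 of 7 called. Choroid plexus markers ran from 6.02 to 7.23 and from 6.77 to 7.27, with 2 of 5 called. None of 6 microglia and 5 endothelial markers was called, and of 4 cortical markers 1 was. D1 MSN markers ran from 7.45 to 7.95 and from 7.88 to 8.13, with 4 of 10 higher (Isl1 is on this list too), and D2 MSN markers from 10.46 to 10.84 and from 10.55 to 10.85, with 2 higher and Drd2 lower (-0.49, SE 0.108, limma adjusted p = 0.00563).

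With the oligodendrocyte mean as a covariate the D2 genotype difference was 1.32 for Lhx8 (SE 0.227), 0.75 for Slc18a3 (SE 0.224) and 0.39 for Slc5a7 (SE 0.149). This covariate did not overlap between the D2 genotypes, so its part and that of genotype cannot be told apart in these values. Its lowest D2 array, D2 control cocaine replicate 1, read 6.83, and the other D2 controls read 7.44 or more. The part of the other cells in the differences was not tested. The 3' minus 5' difference of the control probe sets, a measure of RNA quality, ran from 1.97 to 2.49 in D2 controls and from 2.09 to 2.52 in D2 mutants.

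Interneurons that use GABA are other sparse cells of the striatum. Of 12 of their markers 6 were lower in D2 than in D1 arrays of controls and none higher, where 12.2% of all probe sets were called in either direction, among them Reln (-0.78, SE 0.0829), Npy2r (-0.99) and Sst (-0.55), and in mutants 8 were lower and 1 higher, with 20.5% called. Between D2 genotypes, with 4.91% called, 2 rose, the dopamine synthesis enzyme Th (1.46, SE 0.180) and the neuropeptide Y receptor Npy2r (0.66, SE 0.159), and Reln fell (-0.30, SE 0.0776). Th (0.99) and Npy2r (0.85) also rose in D1 mutants. The cortical excitatory markers were lower in D2 than in D1 arrays too, 4 of 4 in controls (median -1.43) and in mutants (median -1.33). Of these 4 markers 2 passed the floor. Their mean level ran from 4.52 to 6.91 in D1 controls and from 4.15 to 4.59 in D2 controls. Which cells carry the D2 minus D1 differences of either list was not tested. Of 9 listed markers of cholinergic neurons outside the striatum 5 had a probe set, and 3 passed the floor. None of the 5 passed in any D2 contrast, where 0% to 20.5% of all probe sets were called. Nothing is read from so small a list.

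Other genes of the acetylcholine pathway were called between the D2 genotypes about as often as the 4.91% of all probe sets, so their counts are no result about the pathway. Of 13 genes of acetylcholine breakdown and choline supply only Acly, which makes the acetyl-CoA used in synthesis, rose in D2 mutants (0.27, SE 0.0748, limma adjusted p = 0.0358). Ache, which breaks acetylcholine down, was higher in D2 than in D1 arrays of mutants (0.87, SE 0.124, limma adjusted p = 8.74e-06). Of 18 acetylcholine receptor genes only the nicotinic subunit Chrna4 changed with genotype in D2 arrays, where it fell (-0.36, SE 0.0803, limma adjusted p = 0.00682). Among 9 vesicle transporters of other transmitters none passed between D2 genotypes. Of 19 other LIM homeodomain factors and cofactors Isl1 was the only one that did. Many genes of these lists lay at background, which limits the counts. The floor was passed by 8 of the 13 breakdown and supply genes and 7 of the 18 receptor genes. It was passed by 6 of the 9 transporters and 12 of the 19 LIM genes.

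The genes most like Lhx8 over the 14 D2 arrays, of 12015 others above the floor, were the neurokinin receptor Tacr3 (r = 0.983), the transcription factor Zic1 (0.963), Ddah1, which degrades an inhibitor of nitric oxide synthase (0.954), the monoamine oxidase Maob (0.936), Cyp4x1 (0.932) and Elfn1 (0.932). Tacr3 ran from 6.08 to 7.26 in D2 controls and from 7.50 to 8.16 in D2 mutants, and Zic1 from 7.31 to 8.36 and from 8.74 to 9.73. Both separated the genotypes, as Lhx8 does, and a choice by likeness to Lhx8 favours that. In D1 arrays Tacr3 ran from 5.73 to 6.39 and Zic1 from 4.62 to 7.86, and both overlapped D2 controls. Maob ran from 6.23 to 8.78 in D1 arrays (mean 7.55), against 5.85 to 6.80 in D2 controls. Of the 6 genes of the cholinergic list above the floor, Isl1 ranked 15th (r = 0.895) and Ecel1 29th (r = 0.877), while Ngfr ranked 1292nd (0.531), Lhx6 2917th (0.350), Trh 4466th (0.214) and Prima1 7110th (-0.022).

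When group means were subtracted, the 6 genes most like the mean of the 4 members were Rrp8 (r = 0.942), the synaptic calsyntenin Clstn2 (0.913), Fanci (0.897), Ecel1 (0.881), Tacr3 (0.863) and R3hdm4 (0.848). Between D2 genotypes Clstn2 (1.08), Tacr3 (1.15) and Ecel1 (0.70) were higher in mutants, while Rrp8 (-0.06), Fanci (-0.07) and R3hdm4 (-0.52) had values below 0. Of the same list Trh ranked 175th on this measure (r = 0.658), Ngfr 768th (0.482), Prima1 1929th (0.300), Isl1 2560th (0.233) and Lhx6 8164th (-0.24). These correlations describe 14 arrays that share their processing, and they carry no test.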

How the data were processed

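The authors deposited log2 values of 45101 probe sets for 27 Affymetrix whole-genome mouse arrays. Expression Console 1.1 and RMA (robust averaging over arrays) are named in the submitters' processing notes, and the series text also names scaling in GCOS. RMA evens out the arrays' distributions, so a shift shared by all genes would not be seen. Probe sets were named from the 2016 platform annotation: 34945 had 1 symbol, 932 several and 9160 none, and 64 were controls. A gene was represented by its brightest probe set.

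All 45037 other probe sets were fitted in limma 3.58.1 (R 4.3.3) with 8 group means and contrasts that weight drugs or genotypes equally, with Benjamini-Hochberg adjustment within a contrast and a threshold of 0.05. The floor of 6 in at least 3 arrays served alternatives and gene likeness. The series' design text gives 2 to 4 mice per group, as many as there are arrays, and no batch is labelled. The code was tested on simulated data. Correlations of same-numbered arrays' deviations ran from -0.41 to 0.51 (median 0.020 in D1, -0.028 in D2). Those of differently numbered arrays ran from -0.51 to 0.48 (0.0051 and -0.0072), so no block was used in the main fit. The D2 control arrays numbered 1 did read highest in Lhx8 and Slc18a3 within both drug groups. The number of arrays limits the precision.

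Genes named were the members, up to 4 of each list by smallest p, the 6 most like Lhx8 or the members' mean, and Ehmt2. The members and lists were chosen with earlier results of these data known, so calls and p-values of the lists are no independent support. The linear scale, the motifs, the split of correlations by genotype and the follow-up of Ecel1 were chosen after the data were seen.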

Additional observations from a re-analysis of the deposited data

Results flagged for a closer look

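In each of the 16 combinations of a member and a group of 4 arrays, the highest or lowest array was compared with the rest by Dixon's test, and 2 stood apart. In Slc18a3 D2 control cocaine replicate 1 read 6.30, above the other 3 arrays of its group at 5.38 to 5.46. It also had the highest Lhx8 of its group. In Slc5a7 D1 mutant cocaine replicate 2 read 4.53, above 4.31 to 4.34, under the floor. Chance flags about 1 in 20 groups.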

How the results depend on the processing

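Of 327 values of the members under alternatives other than leaving out 1 array, 310 counted as unchanged. They kept their direction and their side of the threshold or, where described without a test, moved by less than 1 SD. The rule is lenient, so nothing is read from this count. No tested value of the members passed in the main fit. The SD is the pooled within-group SD, for Slc18a3 0.338 against a D2 genotype difference of 0.37. With the oligodendrocyte covariate Slc18a3 was 1.86 for D2 minus D1 in mutants and 0.75 between D2 genotypes. On the linear scale above the D1 mean, the D2 genotype difference of Slc5a7 was 1.28 in log2, a value set by the D1 mean taken as 0. Values near 0 changed sign without passing. Slc5a7 between D1 genotypes was 0.013 with cyclic loess, 0.038 with array weights, 0.0083 with the replicate block, 0.016 with the RNA quality covariate and 0.048 without arrays of high Ttr (-0.088 to 0.067 leaving out 1 array). Chat for cocaine in D2 was -0.0041 with cyclic loess, -0.0029 with RNA quality and -0.012 with the oligodendrocyte covariate (-0.031 to 0.064 leaving out 1 array). In D1 it was 0.025 and 0.011 with those covariates (-0.054 to 0.026). Lhx8 for cocaine in D1 was 0.016 with the replicate block (-0.099 to 0.0094). The replicate block moved no value of the members across the threshold. For Ecel1 the genotype by drug value was -0.032 with D2 mutant cocaine replicate 4 counted as a control. The correlation of Lhx8 with Slc18a3 passed with median centring (r = 0.771, adjusted exact permutation p = 0.0408) and with that array as a control (0.758, adjusted exact permutation p = 0.0262), and ran from 0.620 to 0.835 leaving out 1 array (adjusted 0.00781 to 0.200), passing without any 1 of 4 D2 mutant arrays. Lhx8 with Chat was 0.195 with that array as a control (-0.36 to 0.14 leaving out 1 array), and Chat with Slc5a7 ran from -0.061 to 0.43. Causes were not tested. Over all probe sets the calls ran from 2816 to 8065 (main 5506) for D2 minus D1 in controls, 1927 to 10895 (9220) in mutants, 627 to 2996 (2212) for D2 genotypes, 507 to 1175 (766) for D1 genotypes, 2 to 64 (10) for cocaine in D2 and 32 to 371 (67) in D1. Leaving out 1 array gave 3220 to 6604 for the first, 2 to 34 and 6 to 151 for cocaine, and 0 to 1 for genotype by drug. Higher calls made up 58.3% for D2 minus D1 in controls and 48.6% with cyclic loess. For cocaine they were 80% in D2 (64.3% with loess, 100% with median centring) and 89.6% in D1 (78.9% with loess). Chat and Slc5a7 lie under the floor on all arrays, which limits their values.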
